A study of Homo sapiens with 6 samples.

Results

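The genes described here are 5 human chemokine genes, CXCL9, CXCL10, CXCL11, CCL5 and CX3CL1, whose products attract T cells. These 5 of the 60498 genes in the count table were chosen by their symbols, with their counts, levels and cGAMP folds in these same libraries already known, so those values are a description and carry no test. All 5 were among the 15126 genes that averaged 10 or more counts per library, which were the genes analysed; CXCL9, CXCL10 and CXCL11 passed that limit only through their counts in 2 libraries, the cGAMP libraries of the lines with a wild-type allele.

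The study asked how the HAQ haplotype of STING1, a version of the gene with several linked amino acid changes, alters the response to the STING ligand 2’3’-cGAMP. SKOV3, an established ovarian cancer line, carries 1 wild-type and 1 HAQ allele (WT/HAQ), and CRISPR with a pair of guides delivered by lentivirus gave a clone with only the wild-type allele (WT/-) and a clone with only the HAQ allele (HAQ/-), each grown from limiting dilution. Each of the 3 lines gave 1 control library and 1 library from cells exposed to 2’3’-cGAMP at 10 μg/mL for 30 min, with digitonin to open the membrane, and left for 4 h before RNA was taken. No group was replicated, each edited genotype is 1 clone, and the sources used here do not describe how control cells were handled. The effect of the haplotype and that of the clone therefore cannot be told apart, nor can that of cGAMP and that of any difference in handling.

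STING1 itself had 757 counts in the WT/HAQ control and 1873 in the WT/HAQ cGAMP library, 378 and 414 in WT/-, and 244 and 368 in HAQ/-. The control level in HAQ/- was 60.3% of that in WT/- (95% interval 51.2 to 71.1), and both clones were below the parental line. Total counts ran from 12444791 to 17608427 per library. ERBB2, which SKOV3 carries at high level, had 34787 to 79376 counts. Of 9 leukocyte markers, CD3D, NKG7 and MS4A1 had 0 counts in every library, and the 9 together had 3 to 10 per library.

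Chemokines are small secreted proteins that guide cells bearing the matching receptor. CXCL9, CXCL10 and CXCL11 are ligands of CXCR3, a receptor of activated T cells and natural killer cells, and are classical targets of interferon. CCL5 attracts T cells and other leukocytes and is switched on by both interferon regulatory factors and NF-kB, while CX3CL1 (fractalkine) is made as a membrane protein that holds cells bearing CX3CR1 and can be cut free by proteases. In tumours these ligands are known for drawing T cells into the tissue.

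CXCL9 (ENSG00000138755, chromosome 4, 76001275 to 76007509), CXCL10 (ENSG00000169245, chromosome 4, 76021118 to 76023497) and CXCL11 (ENSG00000169248, chromosome 4, 76033682 to 76041415) lie side by side on the minus strand of chromosome 4, with 13608 bp between CXCL9 and CXCL10 and 10184 bp between CXCL10 and CXCL11. CCL5 (ENSG00000271503, chromosome 17, 35871491 to 35880793) is also on the minus strand, and CX3CL1 (ENSG00000006210, chromosome 16, 57372477 to 57385044) is on the plus strand. These coordinates are those of GENCODE release 44 on GRCh38.

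The promoters of the 3 neighbouring genes, all ligands of CXCR3, are shown so that genes of 1 cluster with different levels can be compared by sequence. Each is the 250 bases before the annotated start in RefSeq (GRCh38.p14), written 5′ to 3′ on the minus strand, with matches to 2 short motifs in capitals. The regions are chr4:76023498-76023747 for CXCL10, chr4:76036071-76036320 for CXCL11 and chr4:76007510-76007759 for CXCL9. The CXCL11 stretch also falls in an intron of a longer annotated CXCL11 transcript.
CXCL10: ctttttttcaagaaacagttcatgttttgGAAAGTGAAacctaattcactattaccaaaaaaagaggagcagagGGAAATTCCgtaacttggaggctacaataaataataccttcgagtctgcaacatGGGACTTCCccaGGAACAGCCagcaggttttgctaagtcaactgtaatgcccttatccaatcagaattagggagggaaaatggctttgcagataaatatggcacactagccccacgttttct
CXCL11: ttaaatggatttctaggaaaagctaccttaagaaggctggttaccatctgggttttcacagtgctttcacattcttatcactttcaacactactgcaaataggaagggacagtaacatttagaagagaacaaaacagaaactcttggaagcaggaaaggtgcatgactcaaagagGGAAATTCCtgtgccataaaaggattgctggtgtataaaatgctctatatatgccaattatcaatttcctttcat
CXCL9: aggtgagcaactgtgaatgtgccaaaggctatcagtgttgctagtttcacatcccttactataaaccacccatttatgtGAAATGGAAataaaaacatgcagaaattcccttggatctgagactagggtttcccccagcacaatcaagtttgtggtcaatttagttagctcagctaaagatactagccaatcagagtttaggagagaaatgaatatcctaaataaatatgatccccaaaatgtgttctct

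The motifs searched on both strands were an interferon response core, GAAANNGAA, present in 6.88% of 35116 RefSeq promoters of this length, and an NF-kB core, GGNNNTTCC, present in 17.1%. CXCL10 held the interferon core at bases 221 to 213 before its start (GAAAGTGAA) and the NF-kB core at 3 places: GGAAATTCC at 176 to 168, which reads as a match on both strands, GGGACTTCC at 122 to 114, and GGAACAGCC at 110 to 102, a match on the opposite strand. CXCL11 held GGAAATTCC at 75 to 67 and no interferon core. CXCL9 held GAAATGGAA at 171 to 163 and no NF-kB core. So of these 3 windows only that of CXCL10 held both motifs; a match of letters is a description and shows no binding.

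In control cells all 5 chemokine mRNAs were scarce. Their counts summed to 33 in the WT/HAQ line, 38 in WT/- and 27 in HAQ/-. With cGAMP the sum was 8160 in WT/HAQ and 7581 in WT/-, but 333 in HAQ/-. As CPM, counts scaled to the library total, these sums were 488 for WT/HAQ and 609 for WT/-, against 24.3 in the HAQ/- library. The chemokines differed in how much of the response HAQ/- showed: CXCL9, CXCL10 and CXCL11 had 10 counts or fewer there, CCL5 was present at a small share of its level in the other lines, and CX3CL1 had a fold near that of the other lines. In bulk RNA, fewer responding cells and less RNA per cell cannot be told apart.

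**Figure D1:**
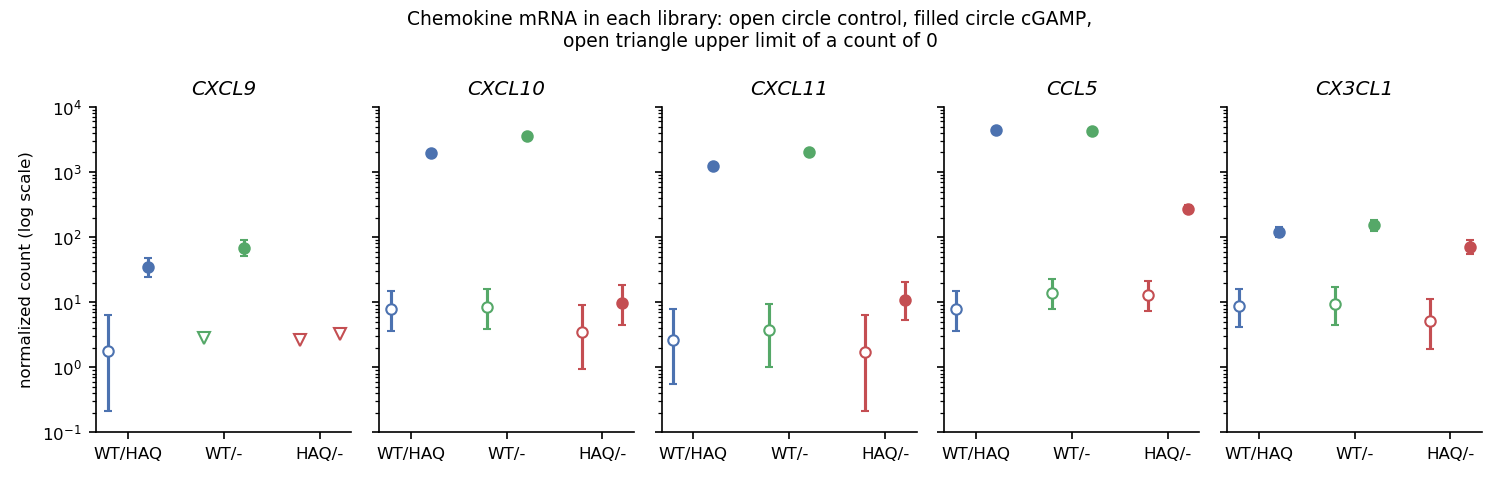
Normalized counts of the 5 chemokines in each of the 6 libraries, on a log axis, by line; open circles are control and filled circles cGAMP libraries, bars are exact 95% Poisson intervals of the count, and triangles mark the limit of 3 counts set for a count of 0. With cGAMP, CXCL10 lies at 1967 and 3549 in WT/HAQ and WT/- and at 9.85 in HAQ/-, whereas CX3CL1 lies at 119.8, 152.3 and 71.2.

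CXCL10, also called IP-10, is an interferon-induced CXCR3 ligand. It had 9 counts in the WT/HAQ control and 2070 with cGAMP, 9 and 2657 in WT/-, and 4 and 9 in HAQ/-. Both libraries of cGAMP-exposed cells with a wild-type allele stood far above the other 4, whose counts did not exceed 9. The normalized count was 247-fold higher with cGAMP than in control in WT/HAQ (95% interval 130.0 to 542) and 423-fold higher in WT/- (222 to 925). In HAQ/- the ratio was 2.82 with an interval of 0.788 to 12.5, which includes 1. All intervals of counts and ratios given here are 95% intervals, exact Poisson for a level and exact binomial (Clopper-Pearson) for a ratio, and cover counting error only, not the spread between cultures.

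CXCL11, the CXCR3 ligand of highest affinity, followed CXCL10 closely. Its counts were 3 and 1314 in WT/HAQ, 4 and 1513 in WT/-, and 2 and 10 in HAQ/-. The control counts overlapped between lines, and the HAQ/- cGAMP library stayed near them. For WT/HAQ the ratio of normalized counts, cGAMP over control, was 471 (161 to 2287), for WT/- 541 (211 to 1989) and for HAQ/- 6.27 (1.34 to 58.9). The HAQ/- ratio rests on 2 control counts.

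CXCL9, the CXCR3 ligand most tied to interferon gamma, was the weakest of the 3. It had 2 counts in the WT/HAQ control and 37 with cGAMP, 0 and 51 in WT/-, and 0 and 0 in HAQ/-. It was thus seen above the limit of a zero in cGAMP-exposed cells with a wild-type allele and in no other library. The ratio in WT/HAQ was 19.9 (5.13 to 170), on 2 control counts. In WT/- the level with cGAMP was 24.3 times the limit of 3 counts per library set for the control, and the exact binomial lower limit of the ratio was 19.1. No fold can be given for HAQ/-, where the limit of 3 counts is 2.62 normalized counts in the control and 3.28 with cGAMP. The exact Poisson upper limits there are 3.22 and 4.04. Interferon gamma mRNA (IFNG) itself had 1 count over all 6 libraries.

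CCL5 had the most counts of the 5. There were 9 in the WT/HAQ control and 4613 with cGAMP, 15 and 3246 in WT/-, and 15 and 249 in HAQ/-. In HAQ/- its cGAMP count stood well above every control count. The ratio was 551 in WT/HAQ (290.1 to 1206), 309.7 in WT/- (187 to 554) and 20.8 in HAQ/- (12.4 to 37.8). The intervals of the WT/HAQ and WT/- ratios overlap each other, and neither overlaps that of HAQ/-.

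CX3CL1 had 10 counts in the WT/HAQ control and 126 with cGAMP, 10 and 114 in WT/-, and 6 and 65 in HAQ/-. In each line the cGAMP library stood above every control library. The ratio was 13.5 in WT/HAQ (7.13 to 28.9), 16.3 in WT/- (8.56 to 34.9) and 13.6 in HAQ/- (5.92 to 38.4). It was the only one of the 5 whose ratio in HAQ/- lay inside the intervals of both other lines.

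**Figure D2:**
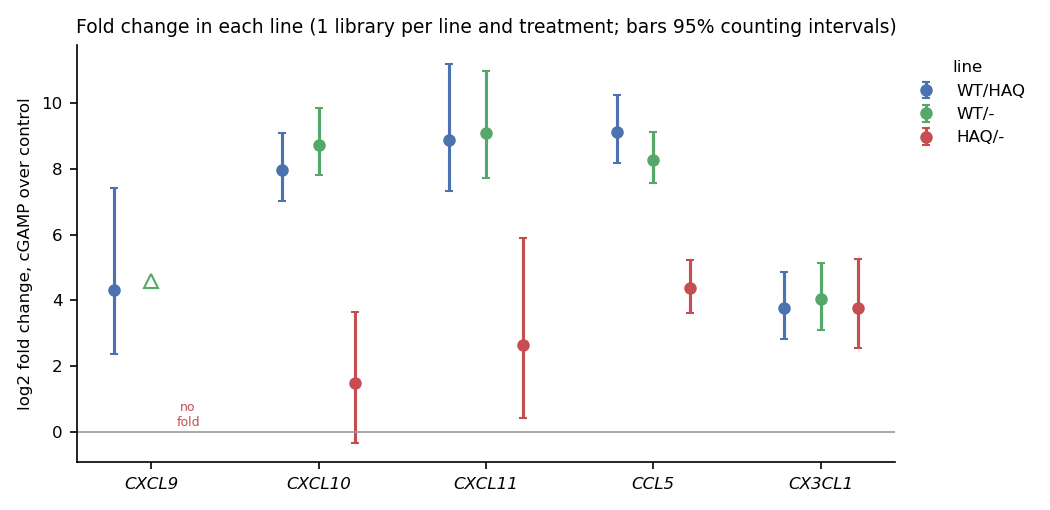
The log2 fold change, cGAMP over control, of each chemokine (x axis) in each line (colour), with 95% counting intervals; the triangle sets CXCL9 in WT/- against the limit of 3 counts for a control count of 0, and no fold is given for CXCL9 in HAQ/-. The HAQ/- points of CXCL10, CXCL11 and CCL5 lie below those of the other lines, at 1.5, 2.65 and 4.38, and that of CX3CL1 lies at 3.76 beside 3.76 and 4.03.

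The gap between the lines can be put on the log2 scale as the fold change in WT/- minus that in HAQ/-. It was 7.23 for CXCL10 (4.88 to 9.39), 6.43 for CXCL11 (2.93 to 9.35) and 3.89 for CCL5 (2.77 to 5.02). For CX3CL1 it was 0.26, with an interval of -1.5 to 1.89. That interval includes 0 but also log2 differences of more than 1 either way, so it does not show that the folds were alike. Between the 2 lines that carry a wild-type allele, the interval of the difference in log2 fold change included 0 for each of the 4 chemokines for which it could be computed, CXCL9 being without a control count in WT/-.

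Levels compared between the cGAMP libraries do not depend on the low control counts. The CXCL10 level in HAQ/- was 0.278% of that in WT/- (0.127 to 0.528), and the CXCL11 level was 0.542% (0.259 to 0.999). For CXCL9, at 0 counts, the limit of 3 counts was 4.82% of its WT/- level, and the exact binomial upper limit was 6.15%. CCL5 stood at 6.29% (5.50 to 7.15), above the intervals of CXCL10 and CXCL11. CX3CL1 stood at 46.7% (33.9 to 63.9), so its level was lower in HAQ/- even though its fold was near that in WT/-. In the control libraries the CX3CL1 level in HAQ/- was 56.1% of that in WT/- (16.8 to 170), an interval that includes equality. STING1 in the same cGAMP libraries was at 72.8% (63.1 to 84.0); its part in these levels was not tested.

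**Figure D3:**
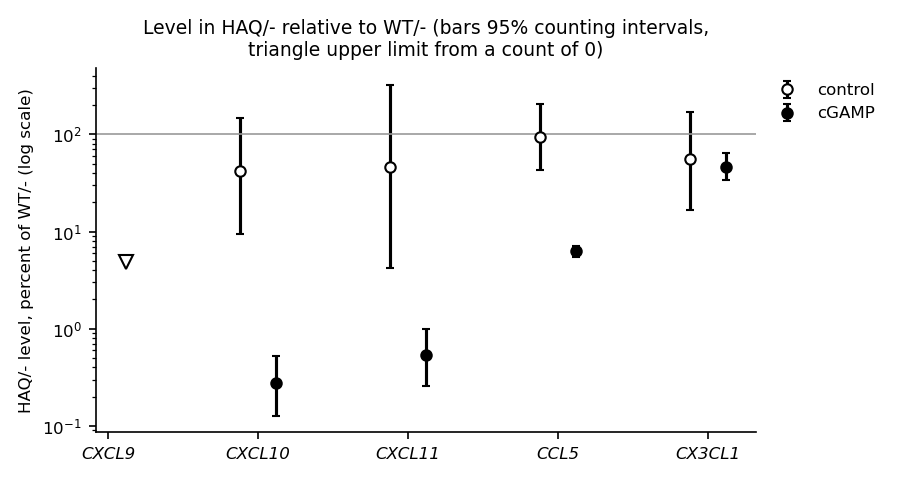
Level of each chemokine in HAQ/- as a percent of its level in WT/-, on a log axis, in control (open) and cGAMP (filled) libraries with 95% counting intervals; the line marks 100%. With cGAMP the values step from 0.278% for CXCL10 and 0.542% for CXCL11 through 6.29% for CCL5 to 46.7% for CX3CL1, and the triangle for CXCL9 is the limit of 3 counts, 4.82%.

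The lines with a wild-type allele also differed from each other after cGAMP. The WT/- level over the WT/HAQ level was 1.94 for CXCL9 (1.24 to 3.04), 1.80 for CXCL10 (1.70 to 1.91) and 1.62 for CXCL11 (1.5 to 1.74). All 3 CXCR3 ligands were therefore higher in WT/- than in the parental line beyond counting error. CX3CL1 had a ratio of 1.27 (0.978 to 1.65) and CCL5 one of 0.989 (0.945 to 1.03), both intervals including 1. STING1 mRNA went the other way, its WT/- level with cGAMP being 31.1% of the WT/HAQ level (27.9 to 34.6).

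Per length, the order of the chemokines changed between lines. In the WT/HAQ cGAMP library CCL5 had 3375 normalized counts per kb of its canonical transcript, CXCL10 1674, CXCL11 844, CX3CL1 36.5 and CXCL9 12.7, and the Poisson intervals of neighbours in this order did not overlap. In WT/- the order was the same, with 3338, 3020, 1366, 46.4 and 24.7, and neighbours were again apart. As a ratio of the facing limits, the gap was smallest between CCL5 (3224 to 3454) and CXCL10 (2906 to 3137). In HAQ/- the order was CCL5 at 209.8, CX3CL1 at 21.7, CXCL10 at 8.38, CXCL11 at 7.40 and CXCL9 at 0 normalized counts per kb. CX3CL1 (16.7 to 27.6) thus stood above CXCL10 (3.83 to 15.9) only in HAQ/- among the cGAMP libraries, and CXCL10 could not be told from CXCL11 (3.55 to 13.6). Among the 3 CXCR3 ligands, CXCL10 made up 66.1% of the normalized counts per kb in WT/HAQ and 68.5% in WT/-, CXCL11 33.4% and 31.0%, and CXCL9 0.503% and 0.559%. In the HAQ/- cGAMP library the shares were 53.1% for CXCL10 and 46.9% for CXCL11, on only 19 counts.

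Across all genes, 12.8% of the 15126 analysed were at least 1.5-fold higher with cGAMP than in control in WT/HAQ; the share was 11.9% for WT/- and 6.75% for HAQ/-, with counts under 3 set to 3. All 5 chemokines reached that fold in WT/HAQ and in WT/-, and 4 of 5 in HAQ/-, the exception being CXCL9; these folds were known when the genes were chosen, so nothing is read from the counts. With counts under 10 set to 10, an alternative added after seeing the data, 2 of 5 reached it in HAQ/-, CCL5 and CX3CL1. Of 1168 genes at or above 1.5-fold in both lines with a wild-type allele, 59.8% were not so in HAQ/-, among them 1 of the 5 chemokines, CXCL9.

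The folds by which the genes were chosen place them as follows. Ranked by fold among all genes with a fold, CCL5 was at place 1, CXCL11 at 2, CXCL10 at 9, CX3CL1 at 143 and CXCL9 at 149 of 15114 in WT/HAQ. In WT/- CXCL11 was at 3, CXCL10 at 4, CCL5 at 5, CXCL9 at 62 and CX3CL1 at 98 of 15099. In HAQ/- CCL5 was at 19 and CX3CL1 at 31, while CXCL11 was at 140 and CXCL10 at 242. Ranked by the difference in log2 fold change between WT/- and HAQ/- among the 1139 genes at or above 1.5-fold in both lines with a wild-type allele and with a fold in HAQ/-, CXCL10 was at place 4, CXCL11 at 7, CCL5 at 25 and CX3CL1 at 988. The median difference over these genes was 0.86. The same ranks against WT/HAQ were 8 for CXCL10, 4 for CXCL11, 14 for CCL5 and 1097 for CX3CL1, beside a median difference of 0.99.

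**Figure D4:**
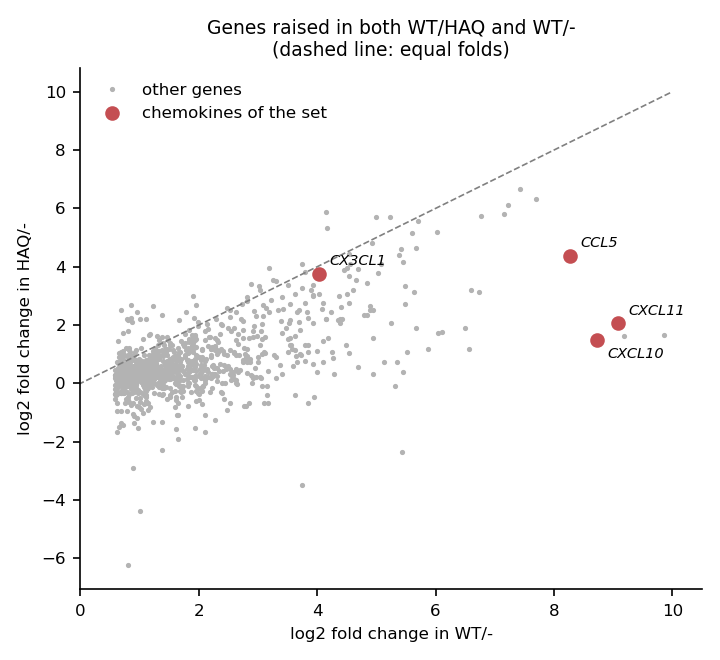
Log2 fold change with cGAMP in WT/- (x axis) against HAQ/- (y axis) for the 1139 genes at least 1.5-fold higher in both lines with a wild-type allele and with a fold in HAQ/-, counts under 3 set to 3; red points are 4 of the chemokines, CXCL9 having no fold in HAQ/-, and the dashed line marks equal folds. CXCL10 and CXCL11 lie at the far right and far below the dashed line, at 8.72 and 1.5 and at 9.08 and 2.06, CCL5 lies at 8.27 and 4.38, and CX3CL1 lies close to the line at 4.03 and 3.76.

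The chemokine profiles fell near different genes. Likeness was measured over the 6 libraries as the root mean square difference of log2 normalized counts, each gene centred on its own mean. The genes nearest to CXCL10 were IFNB1 (0.81), IFNL3 (0.82) and IFNL1 (0.86), and those nearest to CXCL11 were IFNL1 (0.42), IFNB1 (0.47) and IFNL3 (0.93). These are all type I or type III interferon ligands. CCL5 was nearest to OASL (0.67), IFIT2 (0.70) and IFIT1 (0.80), which encode antiviral proteins, and CX3CL1 to THEMIS2 (0.19), APOL6 (0.30) and SAMD9L (0.31). CXCL9 was nearest to RSPO2 (0.05), HEPACAM2 (0.13) and RGS13 (0.15), genes that, like it, were at or under 3 counts in 4 of the 6 libraries, so this likeness rests on 2 values. Within the set, CXCL10 and CXCL11 were 0.55 apart, CXCL11 and CCL5 1.14, CXCL10 and CCL5 1.60, and CXCL10 and CX3CL1 2.63.

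IFNB1 and IFNL1 are among the nearest profiles to CXCL10 and CXCL11 over these same libraries, so a like split between lines follows from how they were found. IFNB1, the type I interferon that most cell types can make, had 5 and 1325 counts in WT/HAQ, 2 and 1934 in WT/-, and 6 and 15 in HAQ/-. IFNL1, a type III interferon that acts mainly on epithelia, had 4 and 1575, 4 and 1633, and 7 and 17. With cGAMP the HAQ/- level was 0.636% of the WT/- level for IFNB1 (0.355 to 1.05) and 0.853% for IFNL1 (0.496 to 1.37). Of 21 interferon ligand genes in the table, 13 had no count at all and 6 were analysed.

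For genes outside the set, the quasi-likelihood test of edgeR compared cGAMP with control over the 3 lines, with the line as a block and 2 residual degrees of freedom, and Benjamini-Hochberg adjustment over the 15126 genes. It called 2.27% of genes higher and 0.959% lower at an adjusted p under 0.05. The p-values measure whether the 3 lines moved alike, not the spread between cultures of a line, and they lean on single lines: without WT/- edgeR called 0 of the 15126 genes, with 1894 at an unadjusted p under 0.05. Of the 6 interferon ligands, 4 rose: IFNB1 (log2 fold change 8.16, adjusted p = 0.0165), IFNL1 (7.92, 0.0173), IFNL2 (7.84, 0.00757) and IFNL3 (8.50, 0.00463). All 4 averaged 10 or more counts only through the cGAMP libraries of the lines with a wild-type allele. They were thus analysed because they were high there, and nothing is read from the count of 4. In HAQ/- IFNL2 had 0 and 0 counts and IFNL3 had 0 and 3, so their fitted changes rest on the other lines. IFNL2 and IFNL3 are near-identical copies, so the split of reads between them is uncertain. Of the 6 interferon ligands, 0 were called without the line block or without WT/-, with 4 at an unadjusted p under 0.05 each time, 2 rose without WT/HAQ, and DESeq2 called 4 higher. Without HAQ/- edgeR called 4 higher and 1 lower.

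The other chemokine genes moved in both directions. Of 42 listed, 41 were found, 15 had no count in any library, and 12 were analysed; by the same edgeR test 1 was higher with cGAMP and 5 were lower. CCL4, a CC chemokine like CCL5, had 1 and 15 counts in WT/HAQ, 1 and 84 in WT/-, and 0 and 0 in HAQ/- (log2 fold change 5.69, adjusted p = 0.0444). It passed the mean count limit for analysis only through the 84 counts of the WT/- cGAMP library. CCL4 was thus analysed because it was high there, and nothing is read from its being called. With 0 and 0 counts in HAQ/-, its fitted change rests on the other lines. CCL4 has a near-identical copy, CCL4L2, and the split of reads between them is uncertain. The chemokines that fell were ligands of CXCR2 or CCR6. CXCL8 (interleukin 8), which attracts neutrophils, had 22998 and 2453 counts in WT/HAQ, 49293 and 13397 in WT/-, and 3597 and 751 in HAQ/- (log2 fold change -2.13, adjusted p = 0.0463). CCL20, the CCR6 ligand, had 250 and 19, 1470 and 285, and 13 and 5 (-2.31, adjusted p = 0.0462), and CXCL2 fell by 1.87 and CXCL3 fell by 1.96 on the log2 scale (adjusted p = 0.0458 for both). CXCL8 counts were thus lower with cGAMP in HAQ/- cells as well as in the lines in which CXCL10 was high.

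The median log2 fold change of the 12 analysed chemokines was -0.97 for the parental line, -0.20 for WT/- and -0.37 for HAQ/-, beside -0.01, 0.00 and -0.01 over all genes. CCL4 had no fold in HAQ/-, so the HAQ/- median and counts leave it out. At least 1.5-fold higher were 4, 3 and 1 of them, beside 12.8%, 11.9% and 6.75% of all genes analysed. CCL4 and CCL22, among those higher in WT/HAQ and WT/-, passed the mean count limit only through cGAMP libraries of these lines. Nothing is therefore read from how many of the chemokines were higher, by fold or by any test. At least 1.5-fold lower were 7, 5 and 5, beside 12.3%, 8.77% and 5.76% of all genes analysed. Without WT/- edgeR called 0 of the 12, 5 of them having an unadjusted p under 0.05, and without WT/HAQ or HAQ/- 5 were called lower and 0 or 2 higher. Without the line block it called 0, with 2 at an unadjusted p under 0.05, while DESeq2 called 2 higher and 5 lower. CCL22, which lies 6287 bp from CX3CL1 on chromosome 16 and is named here after its values were seen, had 0 and 31, 5 and 68, and 4 and 4 counts (adjusted p = 0.0945).

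**Figure D5:**
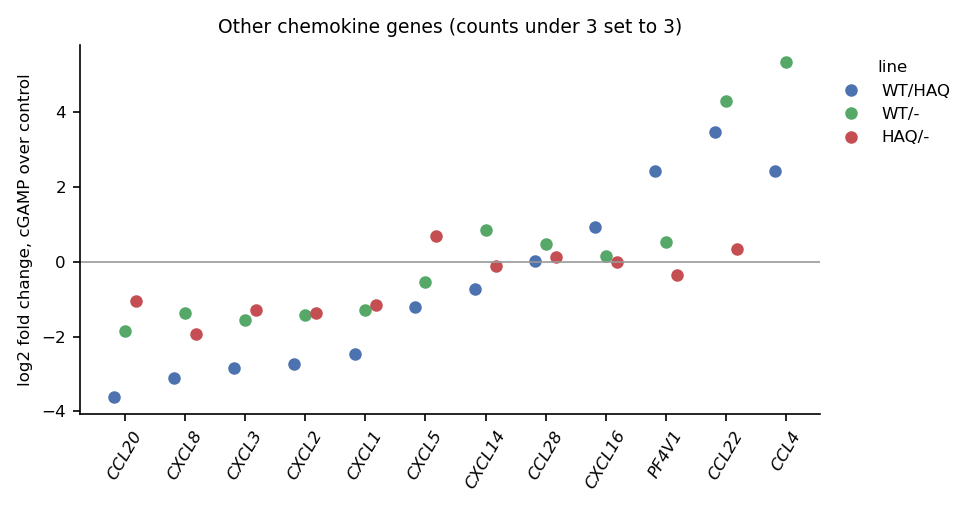
Log2 fold change, cGAMP over control, of the 12 other chemokine genes analysed (x axis) in each line (colour), 1 library per line and treatment, counts under 3 set to 3; CCL4 has no fold in HAQ/-. CXCL8, CXCL3, CXCL2 and CCL20 lie below 0 in all 3 lines, and CCL22 and CCL4 lie above 0 in WT/HAQ and WT/-.

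CXCR3, the receptor of CXCL9, CXCL10 and CXCL11, had 1 count over all 6 libraries. Of the receptor genes listed only ACKR3, a scavenger receptor that binds CXCL11, was analysed. ACKR3 had 29 and 16 counts in WT/HAQ, 32 and 31 in WT/-, and 26 and 11 in HAQ/- (edgeR adjusted p = 0.644). ACKR2, a scavenger of CC chemokines, had at most 6 counts. The proteases that trim or shed these ligands, DPP4, ADAM10 and ADAM17, were all analysed and edgeR called 0 of the 3, with 0 at an unadjusted p under 0.05 and 0 by DESeq2; ADAM10, which sheds CX3CL1, had 1379 to 2490 counts (adjusted p = 0.561), and ADAM17 had 863 to 1816 (adjusted p = 0.902).

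Transcription factors and regulators of these pathways were measured too. Of 12 listed genes, transcription factors of interferon and NF-kB signalling together with the NF-kB inhibitors NFKBIA and TNFAIP3, 4 rose and 2 fell by the same edgeR test. Of all genes analysed, 2.27% were called higher and 0.959% lower. STAT2, part of the complex that interferon activates, had 561 and 4935 counts in WT/HAQ, 946 and 3880 in WT/-, and 540 and 1501 in HAQ/- (log2 fold change 2.54, adjusted p = 0.0187). IRF7 (2.50, 0.00698), IRF9 (2.16, 0.0297) and IRF1 (1.31, 0.0444) also rose, and NFKB1, an NF-kB subunit, fell by 0.60 (adjusted p = 0.0462). In HAQ/- cells the log2 fold change was 1.80 for STAT2, 2.22 for IRF7, 2.33 for IRF9 and 1.72 for IRF1. In the same order it was 2.55, 2.29, 1.38 and 0.72 in WT/-, and 3.24, 3.0, 2.84 and 1.51 in WT/HAQ. Of the 12 genes, 0 were called without the line block, where 3 had an unadjusted p under 0.05, or without WT/-, where 9 had. Without WT/HAQ 2 rose and 0 fell. DESeq2 called 4 higher and 6 lower, and so did edgeR without HAQ/-.

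A signature of 37 interferon-stimulated genes, the study's signature without CXCL10, was raised in HAQ/- as well, with folds nearer to those of the other lines than CXCL10, CXCL11 or CCL5 had. At least 1.5-fold higher were 36 of 37 genes in the parental line, 36 in WT/- and 35 in HAQ/-, with median log2 fold changes of 3.24, 2.73 and 2.32. The shares of all genes analysed at that fold were 12.8%, 11.9% and 6.75%. The edgeR test called 34 of the 37 higher, beside 2.27% of all genes analysed, led by OASL (7.52, adjusted p = 0.00584), RSAD2 (7.30, 0.00999), IFIT2 (7.22, 0.00707), IFIT3 (6.10, 0.00559) and MX1 (5.95, 0.00624). Without the line block 17 were called, and without WT/- 0 were, with 35 at an unadjusted p under 0.05. With counts under 3 set to 3, the median over these genes of each gene's own difference, WT/- minus HAQ/-, was 0.51 on the log2 scale, with 32 of 37 larger in WT/-, beside 7.23 for CXCL10, 7.02 for CXCL11, 3.89 for CCL5 and 0.26 for CX3CL1.

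None of the genes around the CXCL9, CXCL10 and CXCL11 cluster was called by edgeR. There were 9 neighbours, of which 6 were analysed; 2 of these had an unadjusted p under 0.05, as had 3820 of the 15126 genes, and DESeq2 called 0. Without HAQ/- edgeR called 1 of the 6, and 1282 genes higher and 1307 lower over all. SCARB2 had 4572 and 5268 counts in WT/HAQ, 4227 and 3708 in WT/-, and 4518 and 4215 in HAQ/- (log2 fold change 0.29, adjusted p = 0.0787), and G3BP2 had a log2 fold change of 0.12 (adjusted p = 0.330).

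Markers of other cell types were checked because leukocytes and stroma also make these chemokines. The summed counts of 9 markers of T cells, NK cells and other leukocytes were 3 to 10 per library; CD14 had at most 4 and PTPRC at most 3. Summed counts of 6 endothelial and fibroblast markers were 1079 and 1262 in WT/HAQ, 1351 and 1062 in WT/-, and 1343 and 1118 in HAQ/-, most of them COL1A1 (839 to 1123) and DCN (143 to 238). COL3A1, a fibroblast collagen gene of the same list named after its values were seen, had 0 and 51 counts in WT/HAQ, 1 and 0 in WT/-, and 1 and 41 in HAQ/- (edgeR adjusted p = 0.0663); DESeq2 called 1 gene of this list higher, and the part of COL3A1-expressing cells in the chemokine values was not tested. The 5 epithelial and SKOV3 markers were present in every library, among them KRT8 with 8283 to 16551 counts.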

How the data were processed

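Poly(A) RNA of 6 SKOV3 cultures was sequenced by the authors (TruSeq mRNA, NovaSeq, paired-end 150 bp reads). The deposited values are estimated counts per gene, for which the submitters' processing notes name STAR, RSEM and GRCh38; versions and annotation are not given in the sources used here. They were rounded to whole counts. RSEM shares reads among near-identical genes by estimate, so their counts are less certain. Strand use is not stated.

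Normalized counts are counts divided by TMM-scaled library sizes (edgeR 4.0.16, R 4.3.3), relative to their geometric mean. Genes averaging 10 or more counts were analysed. For ranks, lists and thresholds, counts under 3 were set to 3, and no fold was given where both were at or under 3. Differences of log2 folds have intervals joined by the square-and-add method from 95% Clopper-Pearson intervals. Levels per kb use the GENCODE 44 canonical transcript. Genes outside the set were tested with edgeR's quasi-likelihood test, checked first on simulated counts. DESeq2 1.42.0 was an alternative. Python was 3.11.15.

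The members, the gene lists (other chemokines, receptors, proteases, interferon ligands, transcription factors and NF-kB inhibitors, neighbours, the interferon-stimulated signature, cell type markers) and the tests were chosen with earlier results of these data known. Beside the members, IFNB1 and IFNL1, the genes named were the 3 nearest profiles to each member and, in each list, all genes called, the 5 with the largest change where more than 5 were called, or the 2 with the highest mean count where none was. CD3D, NKG7, MS4A1, CXCR3, IFNG, STING1, CCL22, DPP4, COL3A1, CCL3, CCL17, CDKL2 and KRT19 were among the genes named outside that rule. Settings varied were the scaling, the floor, a prior count, the fold threshold, the filter, the line block, the test, leaving out a line, and the motif length.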

Additional observations from a re-analysis of the deposited data

How the results depend on the processing

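With 1 library per line and treatment, counting error is the only error known, and the control counts of 0 to 15 limit the folds. Scaling by DESeq2 size factors or by library totals alone, or a prior count of 2, moved no log2 fold change of a chemokine beyond its interval. A floor of 10 counts moved 4 beyond their intervals: CXCL9 to 1.99 in WT/HAQ and 2.87 in WT/-, and CXCL11 to 7.14 in WT/HAQ and 0.33 in HAQ/-. Within their intervals it moved CXCL10 to 0.33 and CX3CL1 to 3.03 in HAQ/-, and the CX3CL1 difference, WT/- minus HAQ/-, from 0.26 to 1.0. That floor, added after seeing the data for this count, left 2 of 5 chemokines at or above 1.5-fold in HAQ/-, while thresholds of 1.2-fold or 2-fold left 4. Of the genes higher in both lines with a wild-type allele and not in HAQ/-, 422 of 681 were found at 2-fold and 460 of 787 with a mean count of at least 50, beside 698 of 1168. Of the 12 other chemokines, edgeR called 0 higher and 0 lower without the line block, where 2 had an unadjusted p under 0.05, and DESeq2 with the line block called 2 higher and 5 lower. Leaving out 1 line gave 0 to 2 higher and 0 to 5 lower; without WT/-, where none was called, 5 had an unadjusted p under 0.05. No paired analysis beyond the line block was possible because the labels give each group 1 library. Lengthening each motif by 1 letter left it in 3.02% and 5.67% of promoters, and the 3 windows held the same motifs as before, the NF-kB core of CXCL10 at 1 place in place of 3.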

Other observations

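Some further genes of the lists above were chosen for mention after their values were seen. CCL3, a CC chemokine gene with near-identical copies, had 0 and 9 counts in WT/HAQ, 0 and 25 in WT/-, and 0 and 0 in HAQ/-, too few to be analysed. CCL17, near CX3CL1 on chromosome 16, had 0 and 2, 0 and 5, and 0 and 2 counts. CDKL2, close to the CXCL9 to CXCL11 cluster, had 3 and 14 counts in WT/HAQ, 4 and 20 in WT/-, and 1 and 1 in HAQ/-. KRT19, an epithelial keratin gene, had 6369 and 3793 counts in the parental line against 276 to 474 in the clones (cGAMP against control by edgeR, adjusted p = 0.228).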
